A study of Mus musculus with 6 samples.

Results

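Troponin is the calcium switch of striated muscle, and its genes were followed here as a family in embryonic mouse diaphragm. The family was taken as the 8 mouse genes named Tnnc, Tnni and Tnnt that encode troponin C, troponin I and troponin T, whatever their values. Of these, 7 matched an Ensembl identifier in the data, out of 23073 genes with a value, and Tnnc1, the slow and cardiac troponin C, was not analysed here. Its identifier in GENCODE M21 matched no row, 1490 rows matched no symbol, and every order, sum and statement on the slow and cardiac classes leaves Tnnc1 out. The study sequenced RNA from E14.75 diaphragm in 6 libraries, 2 biological replicates in each of 3 groups. The erbB3 wild-type libraries (numbered 5 and 6) hold total RNA of muscle with its Schwann cells. The erbB3 mutant libraries (numbered 1 and 2, labelled erbB3 KO) hold total RNA of muscle labelled as without Schwann cells, from mutants of the receptor gene erbB3 for which the labels name no Cre driver. The Wnt1-Ribotag libraries (numbered 1 and 2, labelled TOM) hold RNA on ribosomes pulled down with an anti-hemagglutinin antibody from embryos that carry Wnt1-Cre and the Ribotag allele and are erbB3 wild-type. Wnt1-Cre acts in the neural crest lineage, which includes more than Schwann cells, and each Wnt1-Ribotag library comes from pooled diaphragms of a whole litter, in which, by the study's methods, only some of the embryos proved to carry Wnt1-Cre, and started from far less RNA than a whole-muscle library. None of the 6 libraries holds unprecipitated RNA of Wnt1-Ribotag muscle. The study asked what RNA changes in muscle when Schwann cells are missing. The values are RPKM, reads scaled by gene length and by the mapped reads of the library, so that levels of different genes can be set side by side.

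In a striated muscle fiber, troponin sits with tropomyosin on the actin thin filament. Troponin C binds calcium, troponin I holds back the actin-myosin interaction at low calcium, and troponin T ties the complex to tropomyosin. Each subunit comes in forms named after the fibers in which they dominate in the adult: Tnni1 and Tnnt1 are the slow skeletal forms, Tnnc2, Tnni2 and Tnnt3 the fast skeletal forms, and Tnni3 and Tnnt2 the cardiac forms of troponin I and troponin T. Embryonic skeletal muscle is known to use mixtures of these forms, and cardiac troponin T is a normal product of immature skeletal muscle.

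RNA of Erbb3, the targeted gene, was checked first. It was at 21.5 and 11.9 RPKM in mutant 1 and 2 and at 16.5 and 15.8 RPKM in wild-type 5 and 6 (log2 difference -0.0073, adjusted p = 0.992 from limma), so that the level of Erbb3 RNA did not separate the libraries labelled mutant from those labelled wild-type. Which exons the mutation removes is not given in the sources used here, and every direction below rests on the labels. The Schwann cell transcription factor Sox10 was at 2.89 and 2.16 RPKM in wild-type 5 and 6, at 0.00854 and 0.0178 in mutant 1 and 2, and at 15.5 and 32.2 in Wnt1-Ribotag 1 and 2.

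The skeletal muscle genes Acta1 (skeletal alpha-actin), Myh3 (embryonic myosin heavy chain) and Myh8 (perinatal myosin heavy chain) were present in every library, at 507 to 1315 RPKM for Acta1, 188 to 394 RPKM for Myh3 and 72.3 to 294 RPKM for Myh8. Of 12 cardiomyocyte markers, 5 passed the filter on low values in mutant vs. wild-type muscle, and the summed RPKM of all 12 was 445 and 363 in mutant 1 and 2, 180 and 200 in Wnt1-Ribotag 1 and 2 and 207 and 169 in wild-type 5 and 6. Most of that sum was Sln (sarcolipin), which fast and embryonic skeletal muscle can also make, at 135 to 366 RPKM. Myh6 (alpha myosin heavy chain) was at 10.96 to 24.5 RPKM and Myl7 (the atrial regulatory light chain) at 1.59 to 18.1 RPKM, and Hcn4 reached 1.61 RPKM. Lowest were the cardiac transcription factor Nkx2-5 and the atrial peptide Nppa, between 0.00384 and 0.157 RPKM in all 6 libraries, while in Wnt1-Ribotag 2 Tbx20 was at 0.933, Nppb at 0.828, Ryr2 at 0.490 and Mybpc3 at 0.395 RPKM. Depth, read from the floor value that genes without reads carry, ranged from 1 to 2.30 times that of wild-type 5, and between 17205 and 20349 genes lay above their floor. All 7 troponin genes lay above it in 6 of 6 libraries and passed the filter in every comparison. In whole tissue, fewer cells of a type and less RNA per cell cannot be told apart.

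The troponin genes lie in pairs in the genome. In the RefSeq gene order of mouse GRCm38.p6, the slow Tnnt1 and the cardiac Tnni3 are direct neighbours on chromosome 7, with 0 protein-coding genes between them. The fast genes Tnni2 and Tnnt3 stand on the same chromosome with 1 gene between them, as do the slow Tnni1 and the cardiac Tnnt2 on chromosome 1, while Tnnc2 on chromosome 2 has no other troponin gene within 5 genes. The members of a pair need not share a class, so that a neighbouring position and a fiber type name can be read apart in the values given further on.

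Promoter sequences of RefSeq were found for 6 of the 8 genes, 8 promoters in all, since Tnni1 and Tnnt2 have 2 starts each. Tnni2 and Tnnt3 had no entry. The 250 bases before the start were searched on both strands for the E-box CANNTG, the target of MyoD-family factors, for its form CAGCTG, which every E-box count includes, for the MCAT element CATTCC of TEAD factors, and for MEF2 and CArG motifs. The promoters of 4 genes from the fast, slow and cardiac classes are printed 5′ to 3′ on the gene's strand, with E-boxes in capitals, because the classes differ in the RPKM values given further on while their promoters share this motif.

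Tnnc2 (fast, chr2:164779735-164779984, minus strand): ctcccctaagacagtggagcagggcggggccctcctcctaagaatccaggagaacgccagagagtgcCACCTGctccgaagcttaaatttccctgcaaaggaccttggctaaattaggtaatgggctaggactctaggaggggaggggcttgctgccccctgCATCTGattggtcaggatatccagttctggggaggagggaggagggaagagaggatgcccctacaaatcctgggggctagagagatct
Tnnt1 (slow, chr7:4515976-4516225, minus strand): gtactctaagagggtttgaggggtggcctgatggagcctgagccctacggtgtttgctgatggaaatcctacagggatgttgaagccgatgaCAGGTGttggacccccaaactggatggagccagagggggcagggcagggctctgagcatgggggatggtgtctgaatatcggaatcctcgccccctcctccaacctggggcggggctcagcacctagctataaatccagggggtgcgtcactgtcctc
Tnni1 (slow, first start, chr1:135799171-135799420, plus strand): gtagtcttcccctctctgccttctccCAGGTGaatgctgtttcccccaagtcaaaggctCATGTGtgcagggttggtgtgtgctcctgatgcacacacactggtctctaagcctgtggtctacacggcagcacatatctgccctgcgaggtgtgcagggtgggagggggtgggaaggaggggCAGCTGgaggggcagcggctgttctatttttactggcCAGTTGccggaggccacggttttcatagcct
Tnnt2 (cardiac, first start, chr1:135836084-135836333, plus strand): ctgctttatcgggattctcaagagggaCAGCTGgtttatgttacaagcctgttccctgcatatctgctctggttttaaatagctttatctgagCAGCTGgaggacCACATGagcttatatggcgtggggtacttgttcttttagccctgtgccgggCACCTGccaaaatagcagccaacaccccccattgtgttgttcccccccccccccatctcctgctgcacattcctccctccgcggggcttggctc

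E-boxes stood in all 8 promoters, as they do in 66.2% of 32851 mouse promoters of this length. The first-start promoters of Tnni1 and Tnnt2 held 4 each, that of Tnnc2 held 2 and that of Tnnt1 held 1. CAGCTG was present at both Tnni1 starts, whose windows overlap, and, 2 times, at the first Tnnt2 start, against 13.0% of all promoters. The first Tnnt2 start and the Tnnc1 promoter also held 1 MCAT element each, which 12.6% of all promoters hold. No MEF2 or CArG match was found in these windows, and 2.92% and 1.47% of all promoters have one. These matches are letters in a window and were not tied to any measurement of binding.

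In wild-type muscle the slow forms led within troponin I and troponin T. Tnnc2 was the most abundant of the 7 genes analysed at 345 and 268 RPKM in wild-type 5 and 6. Tnni1 followed at 290 and 249 RPKM, then Tnnt1 at 254 and 233 RPKM and Tnnt2 at 237 and 193 RPKM. The fast Tnnt3 at 216 and 169 RPKM and the fast Tnni2 at 195 and 132 RPKM came after them. Cardiac Tnni3 was last at 1.03 and 1.07 RPKM. The order of the 7 genes was the same in both wild-type libraries. Neighbours in this order overlapped in their values from Tnnc2 down to Tnni2, so that the levels formed a gradient and not separate steps, and Tnni3 alone lay far below.

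**Figure D1:**
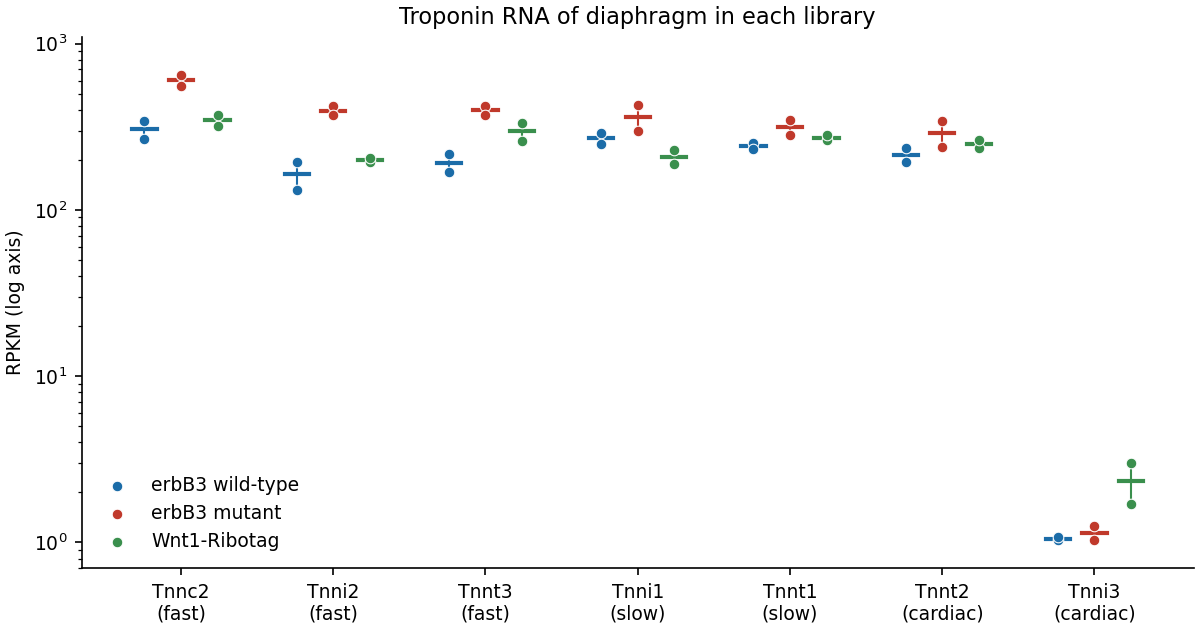
RPKM on a log axis of the 7 troponin genes in each of the 6 libraries, 1 point a library, with the mean of each group as a bar and a line that joins its 2 libraries. The fast genes Tnnc2, Tnni2 and Tnnt3 have both mutant points above both wild-type points, and Tnni3 stays between 1.03 and 3.01 RPKM.

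In erbB3 mutant muscle the 3 fast genes were the troponin RNAs that differed most from wild-type. Tnni2, which encodes fast troponin I, was at 420 and 371 RPKM in mutant 1 and 2 against 195 and 132 RPKM in wild-type 5 and 6. Both mutant libraries lay well above both wild-type libraries, and the ratio of the means was 2.42. Tnni2 differed by 1.29 on the log2 scale (SE 0.21), with an adjusted p of 0.0783 from limma, so that it did not pass the threshold of 0.05.

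Tnnt3, fast troponin T, was at 424 and 372 RPKM in mutant 1 and 2, and at 216 and 169 RPKM in wild-type 5 and 6. The groups did not overlap, and the means stood in a ratio of 2.06. The log2 difference of Tnnt3 was 1.05 (SE 0.18, adjusted p = 0.0912 from limma).

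Tnnc2, fast troponin C, reached 646 and 560 RPKM in the mutant libraries against 345 and 268 RPKM in wild-type. It too was higher in each mutant library than in either wild-type library, with means in a ratio of 1.97. On the log2 scale Tnnc2 differed by 0.98 (SE 0.19, adjusted p = 0.111 from limma).

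The slow and cardiac genes showed smaller differences. Tnni1, slow troponin I, was at 430 and 297 RPKM in mutant 1 and 2 and at 290 and 249 RPKM in wild-type 5 and 6. Mutant 2 was close to wild-type 5 here, and mutant 1 stood apart. The log2 difference of Tnni1 was 0.41 (SE 0.21, adjusted p = 0.445 from limma).

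Tnnt1, slow troponin T, was at 348 and 282 RPKM in the mutant and at 254 and 233 RPKM in wild-type muscle, a log2 difference of 0.36 (SE 0.17, adjusted p = 0.424 from limma). Tnnt2, cardiac troponin T, was at 341 and 239 RPKM in the mutant and at 237 and 193 RPKM in wild-type, a log2 difference of 0.42 (SE 0.21, adjusted p = 0.439 from limma). For Tnnt2 mutant 2 again lay next to wild-type 5, within 1.01-fold. Tnni3, cardiac troponin I, was at 1.25 and 1.04 RPKM in the mutant libraries and overlapped wild-type, with a log2 difference of 0.08 (SE 0.16, adjusted p = 0.837 from limma).

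No troponin gene passed the adjusted threshold in mutant vs. wild-type muscle, where 24 of 14052 genes (0.171%) did. Of the 7 troponin genes, 6 were higher in all 4 pairs of a mutant with a wild-type library, against a background of 12.7% of the genes tested. All 3 fast genes, and none of the slow or cardiac ones, were at least 1.5-fold higher in all 4 pairs, against 0.505% of the genes tested (71 genes). The median log2 difference of the 7 genes was 0.42, and that of all genes tested was -0.10. Leaving out each library in turn kept the log2 difference between 1.01 and 1.57 for Tnni2, between 0.88 and 1.23 for Tnnt3 and between 0.80 and 1.16 for Tnnc2. Without wild-type 5, Tnni2 passed the threshold (1.57, adjusted p = 0.0369 from limma), with the lone wild-type library assumed to vary like the mutant libraries. Without mutant 1 the log2 differences of Tnni1, Tnnt2 and Tnnt1 came to 0.14, 0.16 and 0.21, and without mutant 2 to 0.68, 0.67 and 0.52, so that the size of their difference rested on mutant 1. Without wild-type 6 that of Tnnt2 was 0.27. With quantile normalization the log2 differences of Tnni1, Tnnt2 and Tnnt1 were 0.25, 0.25 and 0.20. Those of Tnni2, Tnnt3 and Tnnc2 were then 1.17, 0.92 and 0.85.

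**Figure D2:**
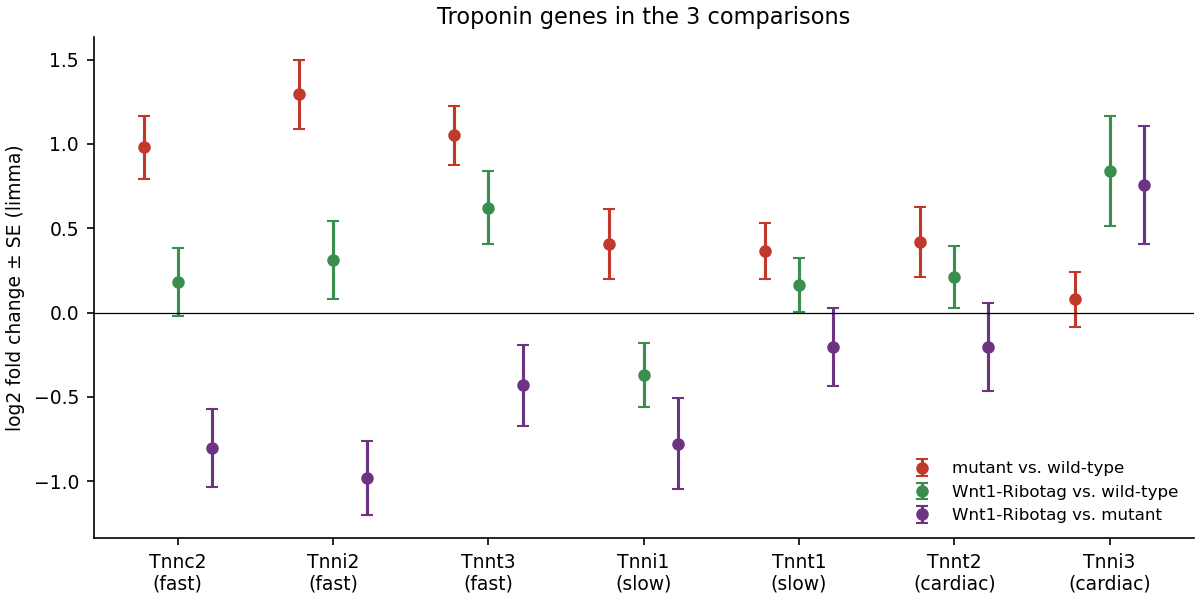
Log2 fold change with its SE from limma for each troponin gene in mutant vs. wild-type, Wnt1-Ribotag vs. wild-type and Wnt1-Ribotag vs. mutant muscle (2 libraries a group, a line at 0). The fast genes lie near 1 in mutant vs. wild-type, and none of the points passed an adjusted p of 0.05.

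Because the RPKM is per length, the isoforms of a subunit can be expressed as shares of their sum within a library, a measure that does not depend on the scaling between libraries. For troponin T, the fast share (Tnnt3) was 30.6% and 28.5% in wild-type 5 and 6 and 38.1% and 41.7% in mutant 1 and 2. Both mutant shares lay above both wild-type shares. The mean was 39.9% ± 2.55 in mutant and 29.5% ± 1.48 in wild-type muscle (SD, n = 2 libraries a group), 10.4 percentage points apart. A two-sided exact permutation test gave p = 0.33, the smallest value that 2 libraries against 2 allow.

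For troponin I, the fast share (Tnni2) was 40.2% and 34.6% in wild-type 5 and 6, below the 49.4% and 55.5% of mutant 1 and 2. Fast troponin I thus came up to the level of slow troponin I in mutant 1 and above it in mutant 2, while in both wild-type libraries it was the minor form. The means were 52.4% ± 4.33 and 37.4% ± 3.96 (SD, n = 2), 15.1 percentage points apart, with an exact permutation p of 0.33. Within troponin T the longest transcripts of Tnnt3 and Tnnt1 are alike in length, at 1079 and 1059 bases. That of Tnnt2, which is part of the same sum, has 3330 bases. Within troponin I the lengths are unlike (895 bases for Tnni2 and 2153 for Tnni1). Leaving out a library kept the difference between 8.55 and 12.2 percentage points for troponin T and between 12.01 and 18.1 for troponin I.

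The order of the genes within a library shifted accordingly. In both mutant libraries Tnnt3 and Tnni2 ranked above Tnnt1 and Tnnt2, whereas in both wild-type libraries they ranked below them. In mutant 2 they also ranked above Tnni1. The cardiac share of troponin T (Tnnt2) was 30.7% and 26.8% in the mutant libraries and 33.5% and 32.4% in wild-type, and the cardiac share of troponin I (Tnni3) stayed between 0.146% and 0.706% over all 6 libraries.

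**Figure D3:**
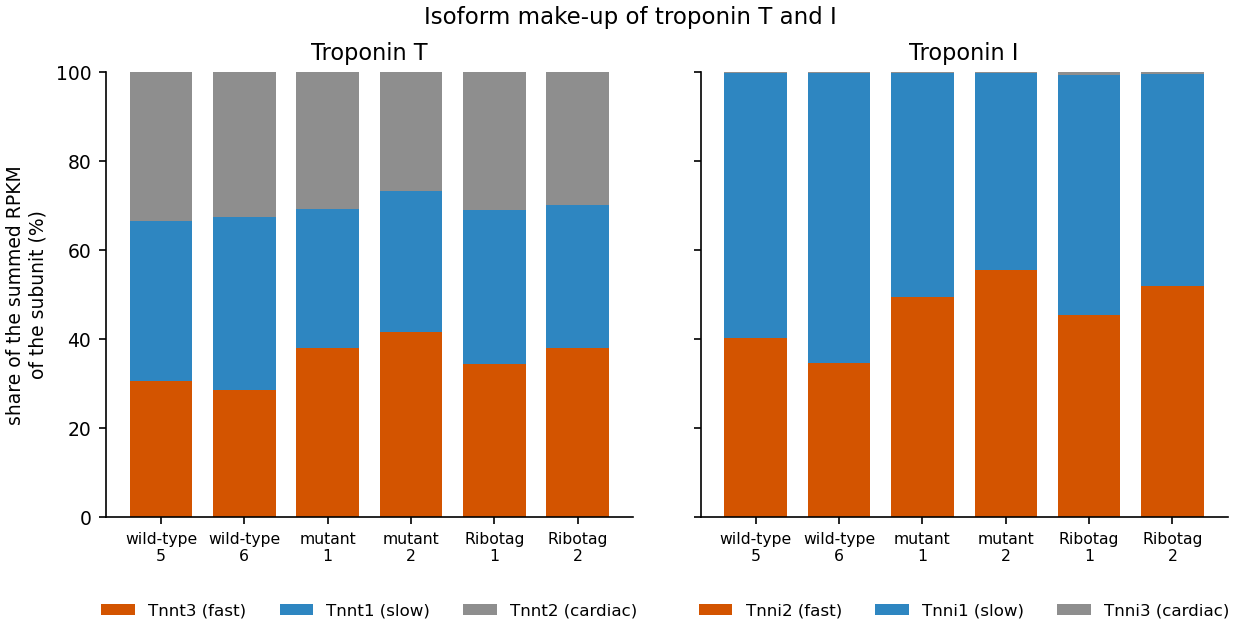
Stacked bars of the share of each isoform in the summed RPKM of troponin T (left) and troponin I (right), in percent, 1 bar a library, each adding up to 100%. The fast share (orange) is 28.5% to 30.6% of troponin T in wild-type and 38.1% to 41.7% in mutant muscle.

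Other genes of muscle varied between the mutant libraries themselves. The summed RPKM of 18 skeletal muscle genes that include no troponin was 3140 in mutant 1 and 1508 in mutant 2, on either side of 1936 and 1679 in wild-type 5 and 6. The troponin sum was less uneven, at 2609 and 2121 RPKM in mutant 1 and 2 and 1537 and 1246 RPKM in wild-type 5 and 6. Acta1, for example, was at 1315 RPKM in mutant 1 and 507 RPKM in mutant 2, with 796 and 671 RPKM in wild-type. When each library was scaled on these 18 genes, the log2 differences of the fast genes were 1.15 for Tnni2, 0.90 for Tnnt3 and 0.83 for Tnnc2, and those of the slow and cardiac genes were between -0.01 and 0.27. With this scaling the SEs grew to between 0.41 and 0.75 and the adjusted p of every troponin gene was 0.9998 in limma, so that these folds are loosely determined.

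Other fast muscle genes had a smaller median difference than the fast troponins. Of 11 other fast muscle genes tested, 10 had a positive log2 difference in mutant vs. wild-type muscle, as did 33% of all genes tested. The median was 0.12, 3 were higher in all 4 pairs (12.7% of all genes) and 0 passed the threshold in limma. Mylpf, the fast regulatory myosin light chain and the most abundant of them, was at 2325 and 2068 RPKM in the mutant and 1293 and 995 RPKM in wild-type (log2 difference 0.95, adjusted p = 0.188 from limma). Myl1, a fast essential light chain, differed by 0.48 in log2, at 771 and 489 RPKM against 460 and 420, with mutant 2 just above wild-type 5. Atp2a1, the fast calcium pump of the sarcoplasmic reticulum, was at 68.8 and 18.2 RPKM in mutant 1 and 2 and 48.5 and 47.8 in wild-type, so that the mutant libraries lay on either side. Log2 differences of the list ran from -0.43 for Atp2a1 to 1.16 for Myoz1, a Z-disc protein of fast fibers at 32.7 and 14.71 RPKM in the mutant and 11.4 and 7.95 RPKM in wild-type. Myoz1, Casq1 (0.47) and the fast myosin heavy chains Myh1, Myh2 and Myh4 (0.01, 0.12 and 0.02) were picked after their values were seen.

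Among slow genes, 8 of 11 were positive and the median was 0.50. Of the 11, 4 were higher in all 4 pairs and 1 passed the threshold. Over all genes tested, 33% were positive, 12.7% were higher in all 4 pairs and 0.171% passed. Casq2, the slow and cardiac calsequestrin, was at 146 and 108 RPKM in the mutant and 71.6 and 68.6 RPKM in wild-type, a log2 difference of 0.84 (adjusted p = 0.134 from limma). Csrp3 (muscle LIM protein) was at 118 and 99.6 RPKM against 54.9 and 42.2 RPKM (1.16, adjusted p = 0.0608) and Myoz2 at 84.9 and 62.5 RPKM against 38.0 and 35.0 RPKM (0.99, adjusted p = 0.0961), sizes like those of the fast troponins, and both were picked after their values were seen. Tpm3, slow alpha-tropomyosin, differed by 0.09 and Myl6b, a slow essential light chain, by -0.16, with overlapping libraries. Myl2, the slow and ventricular regulatory light chain, was the only gene of the muscle lists that passed the threshold, and was picked for that after its values were seen. It was at 46.7 and 24.5 RPKM in the mutant and 6.68 and 4.04 RPKM in wild-type, and rose by 2.59 in log2 units (SE 0.31, limma adjusted p = 0.0281). Myl2 is also one of the 12 cardiomyocyte markers. Of the others tested, Sln was at 366 and 308 RPKM in the mutant and 164 and 135 RPKM in wild-type (log2 difference 1.17, adjusted p = 0.0608 from limma), Myh6, Myl7 and Hcn4 had log2 differences of -0.18, -0.03 and -0.34. The other 7 did not pass the filter on low values. The part of cardiac RNA in the troponin values was not tested.

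The partners of troponin on the thin filament also had a smaller median difference than the fast troponins. Of 15 thin filament genes tested, 13 were positive (33% of all genes tested), 8 were higher in all 4 pairs (12.7% of all genes) and 0 passed the threshold, with a median of 0.28. Actc1, cardiac actin that embryonic skeletal muscle also makes, was at 946 and 744 RPKM in the mutant and 723 and 661 RPKM in wild-type. Tpm2, beta-tropomyosin, was at 376 and 213 RPKM in the mutant and 279 and 247 RPKM in wild-type, and overlapped. Of 8 developmental genes 5 were positive, with a median of 0.14 and a range from -0.45 to 0.80. Myl4, the embryonic and atrial light chain, marked the upper end at 578 and 542 RPKM in the mutant and 354 and 291 RPKM in wild-type, while Myh3, at 353 and 188 RPKM against 257 and 224 RPKM, overlapped.

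Transcription factors of muscle had small differences as a list. Of 18, 3 had a positive log2 difference in mutant vs. wild-type muscle, against 33% of all genes tested, and the median was -0.14, close to the -0.10 of all genes. In all 4 pairs 1 was higher and 2 were lower, against 12.7% and 37.4% of all genes, and 0 passed the threshold in limma. Myog (myogenin), which drives differentiation, was at 313 and 232 RPKM in the mutant and 266 and 212 RPKM in wild-type and overlapped. Myod1 was at 55.2 and 35.0 RPKM in the mutant against 55.1 and 52.1 RPKM. Myf6 (MRF4), picked after its values were seen as the gene with the highest log2 difference of the list, was at 19.3 and 12.6 RPKM in the mutant and 7.48 and 6.30 RPKM in wild-type (1.13, SE 0.21, adjusted p = 0.111 from limma).

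**Figure D4:**
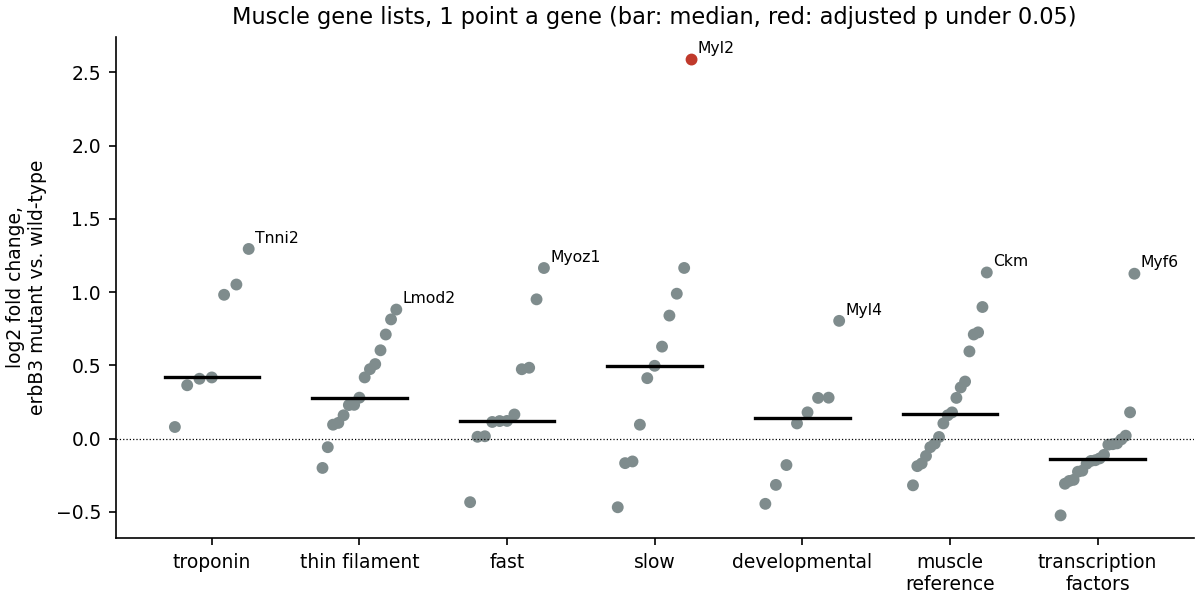
Difference between mutant and wild-type muscle, as log2 fold change, of each tested gene of 7 lists, with a bar at the median of each list, a dotted line at 0 and the gene with the highest value named. The medians lie between -0.14 for the transcription factors and 0.50 for the slow genes, and Myl2 (red) alone passed an adjusted p of 0.05.

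The size of the difference ran along with the length and level of the RNA. Among 557 genes that averaged 100 RPKM or more, the median log2 difference in mutant vs. wild-type muscle was 0.15 and 37.2% were higher in all 4 pairs. Among the 208 of them whose longest annotated transcript is under 1500 bases, the median was 0.24 and 48.1% were higher in all pairs, and among the 327 with a transcript of 1500 bases or more the median was 0.05. The longest transcripts of the fast genes have 700 bases for Tnnc2, 895 for Tnni2 and 1079 for Tnnt3. Those of the slow and cardiac genes have 1059 bases for Tnnt1, 2153 for Tnni1, 3330 for Tnnt2 and 912 for Tnni3.

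Against these 557 abundant genes, Tnni2 ranked 2 in log2 difference, Tnnt3 ranked 6 and Tnnc2 ranked 8, while Tnnt2, Tnni1 and Tnnt1 ranked 27, 30 and 55. Of the 8 abundant genes that were at least 1.5-fold higher in all pairs, 7 were under 1500 bases. These 7 include Tnni2, Tnnt3 and Tnnc2 themselves. In the muscle lists the same gradient was seen. The median was 0.49 over 14 genes under 1500 bases and 0.32 over 26 genes from 1500 to below 4000 bases. It was 0.01 over 16 genes of 4000 bases or more. In the same order, medians against the wild-type mean were 0.90, 0.69 and 0.57 in mutant 1 and 0.19, 0.05 and -0.62 in mutant 2. For the longest genes the mutant libraries thus lay on either side of wild-type. Each library was then scaled within bins of transcript length, an alternative chosen after seeing the data. The log2 differences were 1.18 for Tnni2, 0.99 for Tnnt3 and 0.87 for Tnnc2, with adjusted p between 0.166 and 0.230 from limma. Those of Tnni1, Tnnt2, Tnnt1 and Tnni3 were 0.50, 0.53, 0.30 and 0.00082. The part of transcript length in the remaining difference was not tested.

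**Figure D5:**
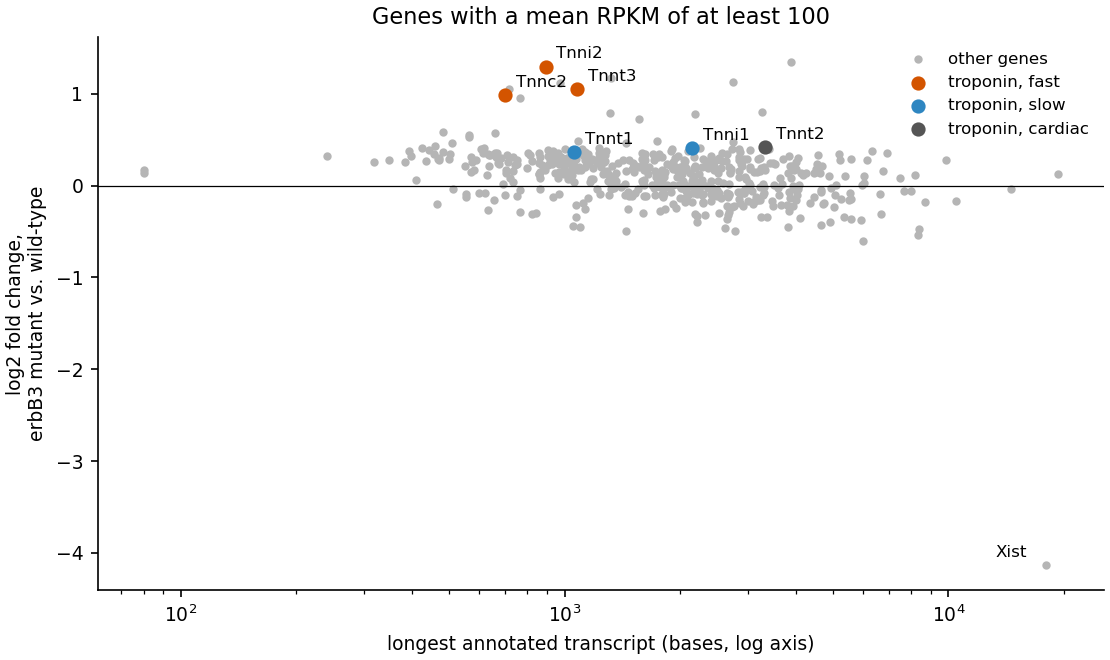
Difference between mutant and wild-type muscle, as log2 fold change, against the length of the longest annotated transcript in bases (log axis) for genes that averaged 100 RPKM or more, 1 point a gene. Fast troponins (orange) are among the highest points at ranks 2, 6 and 8 of 557. Tnnt2 (dark grey), Tnni1 and Tnnt1 (blue) lie lower at ranks 27, 30 and 55, and Xist alone lies below -4. Tnni3 averaged less than 100 RPKM and is not shown.

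RNA of other tissues differed between the groups as well. All 8 liver markers were lower in both mutant libraries than in both wild-type libraries, 2 of them past the threshold, and their summed RPKM was 500 and 152 in wild-type 5 and 6 and 17.7 and 10.2 in mutant 1 and 2. Over all genes tested, 37.4% were lower in all 4 pairs, 33% had a positive difference and 0.171% passed the threshold. Of 8 Schwann cell markers tested 3 fell past the threshold, and of 7 markers of tendon and connective tissue 2 rose. The 6 smooth muscle markers lay between -0.15 and 0.06 in log2 difference, and of 7 erythroid markers 6 were negative and 0 passed. Xist, which belongs to none of these tissue lists, differed by -4.13 on the log2 scale, and the study's methods do not give the sex of the embryos. The part of these differences in the troponin values was not tested.

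Wnt1-Ribotag libraries held troponin RNA at a level near that of wild-type muscle. Yet all 10 Schwann cell markers were higher in them than in wild-type muscle in every pair of libraries, against 23.3% of the genes tested. The troponin genes made up 0.375% and 0.385% of the RPKM total in Wnt1-Ribotag 1 and 2, 0.338% and 0.282% in wild-type 5 and 6 and 0.572% and 0.447% in mutant 1 and 2. The summed RPKM of Schwann cell markers was 120 and 298 in Wnt1-Ribotag 1 and 2 and 33.9 and 31.9 in wild-type.

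Relative to wild-type, the members did not keep a single ratio. Tnnt3 was at 261 and 333 RPKM in Wnt1-Ribotag 1 and 2, above both wild-type libraries, with a log2 difference of 0.62 (SE 0.22, adjusted p = 0.231 from limma). Tnni1 was at 229 and 189 RPKM, below both wild-type libraries, with a log2 difference of -0.37 (SE 0.19, adjusted p = 0.348). Tnni3, at 3.01 and 1.69 RPKM, was above wild-type in both, with a log2 difference of 0.84 (SE 0.33, adjusted p = 0.255).

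Tnnc2 at 320 and 371 RPKM, Tnni2 at 194 and 206 RPKM and Tnnt2 at 235 and 261 RPKM overlapped wild-type, with log2 differences of 0.18, 0.31 and 0.21. Tnnt1 at 264 and 280 RPKM was above wild-type in each pair by at most 1.21-fold. No troponin gene passed the threshold, which 1 of 14418 genes (0.00694%) did. Of the 7 genes, 3 were higher and 1 was lower in all 4 pairs, against 23.3% and 31% of the genes tested. Among the 517 genes that averaged 100 RPKM or more, 13.0% were higher and 47.2% were lower in all 4 pairs.

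A single Wnt1-Ribotag library decided calls in this comparison. Without Wnt1-Ribotag 1, Tnnt3 (0.80, adjusted p = 0.0256 from limma) and Tnni1 (-0.51, adjusted p = 0.0475) passed the threshold, and without Wnt1-Ribotag 2, Tnni3 did (1.18, adjusted p = 0.00673). The number of genes called then went from 1 to 4482 and 5965, and the lone library was assumed to vary like the wild-type libraries. The sizes for the other genes also rested on single libraries. Without wild-type 6 the log2 differences of Tnnc2, Tnni2, Tnnt2 and Tnnt1 were -0.00064, 0.03, 0.07 and 0.10, and without wild-type 5 they were 0.36, 0.59, 0.36 and 0.22. Without Wnt1-Ribotag 2 those of Tnnc2, Tnnt2 and Tnni1 were 0.07, 0.14 and -0.23, and without Wnt1-Ribotag 1 that of Tnnc2 was 0.28 and that of Tnni3 was 0.50.

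The mean fast shares of Wnt1-Ribotag libraries lay between those of the other groups. For troponin T they were 34.3% and 38.0%, 6.67 percentage points above wild-type on average, and for troponin I 45.5% and 51.9%, 11.3 points above wild-type. In both subunits each Wnt1-Ribotag share exceeded each wild-type share (exact permutation p = 0.33 for each). The ratio of summed troponin T to summed troponin I RNA was 1.78 and 2.21 in Wnt1-Ribotag 1 and 2, outside the range of 1.45 to 1.56 in wild-type and 1.31 to 1.34 in mutant muscle. Summed troponin T was at 760 and 874 RPKM in Wnt1-Ribotag 1 and 2, above 707 and 595 RPKM in wild-type 5 and 6. Summed troponin I, at 426 and 396 RPKM, lay within the wild-type values of 486 and 383 RPKM.

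Other muscle genes in the precipitate had a wider range of log2 differences from wild-type, from -1.96 to 0.85 in the slow list and from -0.70 to 1.13 in the fast list, against -0.37 to 0.84 for the troponins. Myh8, the perinatal myosin heavy chain, was at 294 and 226 RPKM in Wnt1-Ribotag 1 and 2 and 106 and 95.2 RPKM in wild-type (log2 difference 1.35, adjusted p = 0.148 from limma). Mylpf was lower, at 797 and 795 RPKM against 1293 and 995 RPKM. No gene of the fast or slow list passed the threshold in this comparison, with a median log2 difference from wild-type of 0.20 over 11 fast genes and -0.07 over 11 slow genes. By transcript length the gradient ran the other way from that of the mutant. The median log2 difference from wild-type was -0.14 for muscle genes under 1500 bases and 0.19 for those of 4000 bases or more. Against the wild-type mean, these medians were -0.12 and 0.44 in Wnt1-Ribotag 1 and -0.05 and 0.06 in Wnt1-Ribotag 2. The gradient thus rested mainly on Wnt1-Ribotag 1. The Wnt1-Ribotag and mutant comparisons share their wild-type libraries.

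Set against mutant muscle, Wnt1-Ribotag libraries had less of most troponin RNAs. Tnni2 differed by -0.98 (SE 0.22, adjusted p = 0.105 from limma), Tnnc2 by -0.80 (SE 0.23, adjusted p = 0.159) and Tnni1 by -0.78 (SE 0.27, adjusted p = 0.203) on the log2 scale. Tnnt3 differed by -0.43, Tnnt1 by -0.20 and Tnnt2 by -0.20, and Tnni3 by 0.76 in the other direction (adjusted p = 0.296). Single libraries moved several of these values. Without Wnt1-Ribotag 1, Tnnt3 was at -0.26, Tnnt2 at -0.13 and Tnni3 at 0.42, without mutant 1, Tnnt1 was at -0.05, Tnnt2 at 0.05 and Tnni1 at -0.51, and without mutant 2, Tnnt1 was at -0.35 and Tnnt2 at -0.46. Of the fast and slow lists 1 gene each passed the threshold here, the fast light chain Mylpf, which fell by 1.46 on the log2 scale (adjusted p = 0.0496), and Ankrd2, a stress-response gene of slow fibers, which fell by 2.37 (adjusted p = 0.0374), both picked after their values were seen. For Tnnt1 and Tnnt2 the direction turned with quantile normalization (0.13 for each). Over 16 alternative settings, Tnni2 ran from -1.07 to -0.66 and Tnnc2 from -0.91 to -0.48. Tnni1 ran from -1.05 to -0.49 and Tnnt3 from -0.61 to -0.12.

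In this comparison 171 of 14325 genes (1.19%) passed the threshold and 0 troponin genes did. Of the 7 genes, 5 were lower and 1 was higher in all 4 pairs, against 24.4% and 29.7% of the genes tested. Among the 543 genes that averaged 100 RPKM or more, 55.4% were lower in all 4 pairs with a median of -0.37, and among the 197 of these under 1500 bases 66.0% were, with a median of -0.48. The difference of the fast share from mutant muscle was -3.69 percentage points for troponin T and -3.73 for troponin I (exact permutation p = 0.33 and 0.67), and for troponin I the libraries overlapped. Leaving out a library moved the difference between -5.54 (without Wnt1-Ribotag 2) and -1.84 (without Wnt1-Ribotag 1) for troponin T, and between -6.97 and -0.50 without the same libraries for troponin I. Without mutant 1 it was -5.49 and -6.79, and without mutant 2 it was -1.88 and -0.67. Without Wnt1-Ribotag 2, the log2 differences of Tnni2 and Tnni3 were -1.03 and 1.10.

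Genes outside the family were ranked by how closely they tracked a troponin class over all 6 libraries. Likeness was measured as the root-mean-square distance of centred log2 values among 13119 genes. Nearest to the mean profile of the fast troponins were Myoz2 (0.14), a Z-disc protein of slow fibers, Ube2c (0.14), a ubiquitin-conjugating enzyme of mitosis, and Mustn1 (0.16), a small protein of muscle and skeleton. Tnnc2, Tnni2 and Tnnt3 themselves lay at 0.08, 0.12 and 0.14 from their own mean.

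Myoz2 was at 84.9 and 62.5 RPKM in mutant 1 and 2, 42.8 and 44.2 RPKM in Wnt1-Ribotag 1 and 2 and 38.0 and 35.0 RPKM in wild-type 5 and 6. It was thus highest in the mutant libraries, as the fast troponins were. Nearest to the slow class were Pdcl3 (0.06), Ephx1 (0.06) and Fam110c (0.07). Tnni1 and Tnnt1 lay at 0.15 from their mean. Nearest to the cardiac class were Cd34 (0.06), Lrrc14b (0.07) and Jam2 (0.08), and its members Tnnt2 and Tnni3 lay at 0.24 from their mean. As the nearest of so many genes, these distances are small by selection.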

How the data were processed

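RNA-Seq values came as 1 table a library. The authors deposited them as RPKM, in which reads are scaled by gene length and depth, and genes without reads carry a floor value in place of 0. Per the labels' processing notes, STAR and mm9 were used, and the program behind the RPKM is not given in the sources used here. RPKM of a gene pools its splice forms. Of 23076 entries a file, 3 held no value, and 21583 identifiers matched a symbol in GENCODE M21 (GRCm38), which also gave transcript lengths. No gene positions were taken from the files.

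Genes averaging 0.5 RPKM or more in the libraries compared were tested on log2(RPKM + 0.5) with limma 3.58.1 (lmFit, then eBayes with a trend, in R 4.3.3). Each fit held the 4 libraries of a pair of groups, and p-values were adjusted by Benjamini-Hochberg over all genes tested. Fold changes are on this scale, which understates those of low genes such as Tnni3. Isoform shares were compared by two-sided exact permutation tests (scipy 1.17.1). Counts were not used, so counting error is unknown. The procedure was tested on simulated data. Python 3.11.15, numpy 2.4.6, pandas 2.3.3 and matplotlib 3.10.9 made the tables and figures.

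The troponin genes and lists were chosen with earlier results of these data known. Of each list, values are given for the 3 genes with the highest mean RPKM, or part of them, unless the text says otherwise. Promoters were searched only up to the start. Alternatives changed 1 choice each: the pseudocount (0.1 or 1), the filter (none, or an average of 1 RPKM), the scaling (median-ratio, quantile, muscle-marker), the trend in eBayes (left out), the fit (all 6 libraries together), a replicate block, and the libraries (each left out in turn). Scaling by transcript length or GC content in 20 bins was chosen after seeing the data.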

Additional observations from a re-analysis of the deposited data

How the results depend on the processing

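Of 352 alternative values for single genes and isoform shares, 336 kept their direction and side of the threshold, 9 passed a threshold missed before and 7 turned. The fast shares kept their direction in every alternative run; those of troponin C were not run, since Tnnc1 was not analysed here. Against 24 genes in mutant vs. wild-type muscle, limma called 0 without a filter (2155 at an unadjusted p under 0.05), 90 with muscle-marker scaling, 0 with all 6 libraries (495 unadjusted), 11 with transcript-length and 9 with GC-content scaling, and between 10 and 106 without 1 library. Against 1 in Wnt1-Ribotag vs. wild-type, it called 0 without a filter (3921 unadjusted), 2 with median-ratio or transcript-length scaling, 64 with muscle-marker scaling, 138 with all 6 libraries, and 26 to 5965 without 1 library. Against 171 in Wnt1-Ribotag vs. mutant, it called 112 without a filter or with GC-content scaling, 80 with quantile normalization, 268 with muscle-marker scaling, 692 with all 6 libraries, and 112 to 3672 without 1 library. The cause of these shifts was not tested.

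With a replicate block by the numbers 1 and 2 in the titles of Wnt1-Ribotag and mutant libraries, 842 genes were called, among them Tnni2 (adjusted p = 0.0095 from limma), Tnnc2 (0.0201) and Tnni1 (0.0275), and no other troponin call changed. The deviations of same-numbered libraries correlated at 0.168, and these libraries came from different crosses, so the numbers do not pair them.

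Tnni3 in mutant vs. wild-type turned to -0.0148 with muscle-marker scaling and ranged from -0.0126 to 0.171 without 1 library. In Wnt1-Ribotag vs. wild-type Tnnc2 ranged from -0.00064 to 0.36 without 1 library. In Wnt1-Ribotag vs. mutant, Tnnt1 turned to 0.13 with quantile normalization and 0.00185 with transcript-length scaling, and Tnnt2 turned to 0.13 with quantile normalization and ranged from -0.461 to 0.0522 without 1 library. The causes were not tested. With 2 libraries a group, no permutation test could pass 0.05.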
